A study of Mus musculus with 8 samples.

Results

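A set of 6 genes of the GDNF pathway were followed across 8 germline stem (GS) cell lines: *Gfra1* and *Ret*, which encode the receptor, and *Etv5*, *Etv4*, *Bcl6b* and *Lhx1*, which encode transcription factors studied as its targets. They were chosen by gene name, and each matched 1 of the 31010 genes in the expression table. All 6 were expressed well enough to be tested. GS cells are cultured mouse spermatogonial stem cells. The labels give the genotype as WT and the titles give B6, and 4 lines came from first-generation mice born after intracytoplasmic sperm injection (ICSI-F1) and 4 from first-generation mice born after natural mating (control-F1). In ICSI a sperm is injected directly into the oocyte, and per the study's methods the sperm not derived from cultured cells came from green mice, which carry a ubiquitously expressed *Egfp* transgene. Testis cells carrying the surface protein CD9 were selected to start the cultures, and every line was kept in a medium holding 15 ng/ml rat GDNF and 10 ng/ml human FGF2, so neither group lacked the ligand. The labels do not tie lines to mice, but the study's supplement numbers its first-generation mice and the line numbers are among those numbers, as they would be with 1 mouse per line. Litters were not given, and p-values measure the spread between lines. Ages of the mice were not given in the labels.

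GDNF binds the membrane-anchored co-receptor GFRA1, and the complex activates the receptor tyrosine kinase RET. In the testis GDNF comes from somatic cells, and undifferentiated spermatogonia need it for self-renewal. Downstream, SRC family kinases, the ERK cascade and AKT carry the signal, and *Etv5*, *Bcl6b* and *Lhx1* are known genes induced by GDNF in these cells, while Sprouty, SPRED and DUSP proteins limit ERK signalling.

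The titles of the 8 samples came in 2 styles, called label forms here. Control lines 29 and 37 and ICSI lines 11 and 17 were in form 1, and control lines 44 and 45 and ICSI lines 20 and 21 were in form 2. The submitters' processing notes listed STAR 2.7.9a and HTSeq 0.13.5 for form 1 and STAR 2.6.0c and HTSeq 0.11.2 for form 2, and the labels do not say what else separates them. The study's supplementary methods differ from these notes, naming only STAR 2.7.9a and HTSeq 0.13.5 for all 8 samples. Since each form held 2 lines of each group, form and group could be fitted side by side. Values are FPKM (fragments per kilobase of gene scaled to the size of the library), a scale that allows levels of different genes to be compared. Reads recovered for the tested genes were 23904375 to 25675851 per line in form 1 and 31462333 to 43124892 in form 2, and the fewest reads for any member were 383, for *Lhx1*.

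All 6 genes lie on the minus strand of GRCm38. *Gfra1* (ENSMUSG00000025089) spans chr19:58235604-58455909 and *Ret* (ENSMUSG00000030110) spans chr6:118151745-118197718. *Etv5* (ENSMUSG00000013089) is at chr16:22381309-22439719. *Etv4* (ENSMUSG00000017724), *Bcl6b* (ENSMUSG00000000317) and *Lhx1* (ENSMUSG00000018698) share chromosome 11, at chr11:101769742-101785371, chr11:70224128-70229798 and chr11:84518284-84525535. *Gfra1* overlaps the antisense gene *Gm16277* over 444 bases, but that gene was at 0 to 0.39 FPKM.

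*Etv5* and *Lhx1* were the members that differed most between the label forms, so the stretches just upstream of their annotated starts are shown, from RefSeq on GRCm38.p6, 5′ to 3′ on the minus strand. The *Etv5* stretch is chr16:22439720-22439820 and the *Lhx1* stretch is chr11:84525536-84525784, which also holds exons of the long noncoding RNA *Lhx1os*. Capitals mark CCAAT, or ATTGG where the same motif lies on the other strand.
Etv5: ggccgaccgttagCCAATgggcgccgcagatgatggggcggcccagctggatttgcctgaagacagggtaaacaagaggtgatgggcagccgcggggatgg
Lhx1: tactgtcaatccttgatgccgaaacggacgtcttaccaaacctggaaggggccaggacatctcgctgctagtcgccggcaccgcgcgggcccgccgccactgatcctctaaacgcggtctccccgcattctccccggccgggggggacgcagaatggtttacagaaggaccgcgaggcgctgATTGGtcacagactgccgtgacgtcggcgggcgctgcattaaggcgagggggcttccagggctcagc

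RefSeq held promoter windows, from 250 bases before to 50 bases after a start, for 3 of the 6 members: 1 for *Lhx1*, 1 for *Gfra1* and 2 for *Etv5*. *Ret*, *Etv4* and *Bcl6b* had none. CCAAT was found on either strand in all 4 windows, against 37.4% of 32851 promoter windows. GGAA, the core letters bound by ETS factors such as ETV5, was found in 3 of the 4, against 96.0%. The longer ETS word CCGGAAGT (3.89% of windows) and the CREB word TGACGTCA (1.79%) were in none of the 4. These matches describe letters, not binding.

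The first question was how much receptor and target mRNA the lines held. *Bcl6b*, a transcriptional repressor, was the most abundant member at 127 ± 60.5 FPKM (mean ± SD, n = 8 lines), above 98.3% of the tested genes. *Etv5*, an ETS transcription factor, followed at 65.7 ± 28.0 FPKM and was below *Bcl6b* in 8 of 8 lines. *Gfra1* and *Ret* stood together at 54.5 ± 16.6 and 54.2 ± 17.7 FPKM. *Etv4*, the close relative of *Etv5*, was at 34.2 ± 6.48 FPKM, and the LIM-homeobox gene *Lhx1* was lowest at 11.4 ± 8.77 FPKM. The order was not equally firm. *Etv5* exceeded *Gfra1* in 6 of 8 lines, all but control lines 29 and 37, and *Gfra1* exceeded *Ret* in 3 of 8. The order of these neighbours thus changed between lines and was not tested, whereas *Etv4* exceeded *Lhx1* in 8 of 8. *Lhx1* varied most, 8.49-fold between its lowest and highest line, and *Etv4* least, 1.94-fold.

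The receptor genes were read line by line first. *Gfra1* was at 45.5, 42.2, 69.0 and 72.1 FPKM in control lines 29, 37, 44 and 45, and at 38.4, 39.8, 80.4 and 48.5 FPKM in ICSI lines 11, 17, 20 and 21. Every form 1 line was below every form 2 line, while control and ICSI lines overlapped. *Ret* was at 38.9, 45.2, 73.7 and 71.0 FPKM in the controls and at 40.0, 40.5, 80.9 and 43.4 FPKM in the ICSI lines, in the same order. For *Ret* the forms overlapped, because ICSI line 21 lay below control line 37. The *Ret* to *Gfra1* ratio stayed between 0.854 and 1.07 in all 8 lines.

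The target genes were less alike. *Etv5* was at 31.1, 35.7, 104 and 87.1 FPKM in the controls and at 44.3, 52.0, 83.1 and 89.0 FPKM in the ICSI lines, and the forms did not overlap. *Etv4* was at 23.9, 46.3, 33.0 and 36.3 FPKM in the controls and at 33.4, 36.3, 28.9 and 35.7 FPKM in the ICSI lines, and its lowest and highest values were both in form 1. The *Etv5* to *Etv4* ratio was therefore 0.771 to 1.43 in form 1 and 2.40 to 3.14 in form 2.

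*Bcl6b* was at 59.9, 121, 260.3 and 117 FPKM in the controls and at 86.1, 108, 111 and 157 FPKM in the ICSI lines. Control line 44 was its highest line and control line 29 its lowest. *Lhx1* was at 5.60, 5.48, 16.5 and 28.3 FPKM in the controls and at 4.59, 3.34, 18.0 and 9.71 FPKM in the ICSI lines. All 4 form 2 lines were above all 4 form 1 lines.

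**Figure D1:**
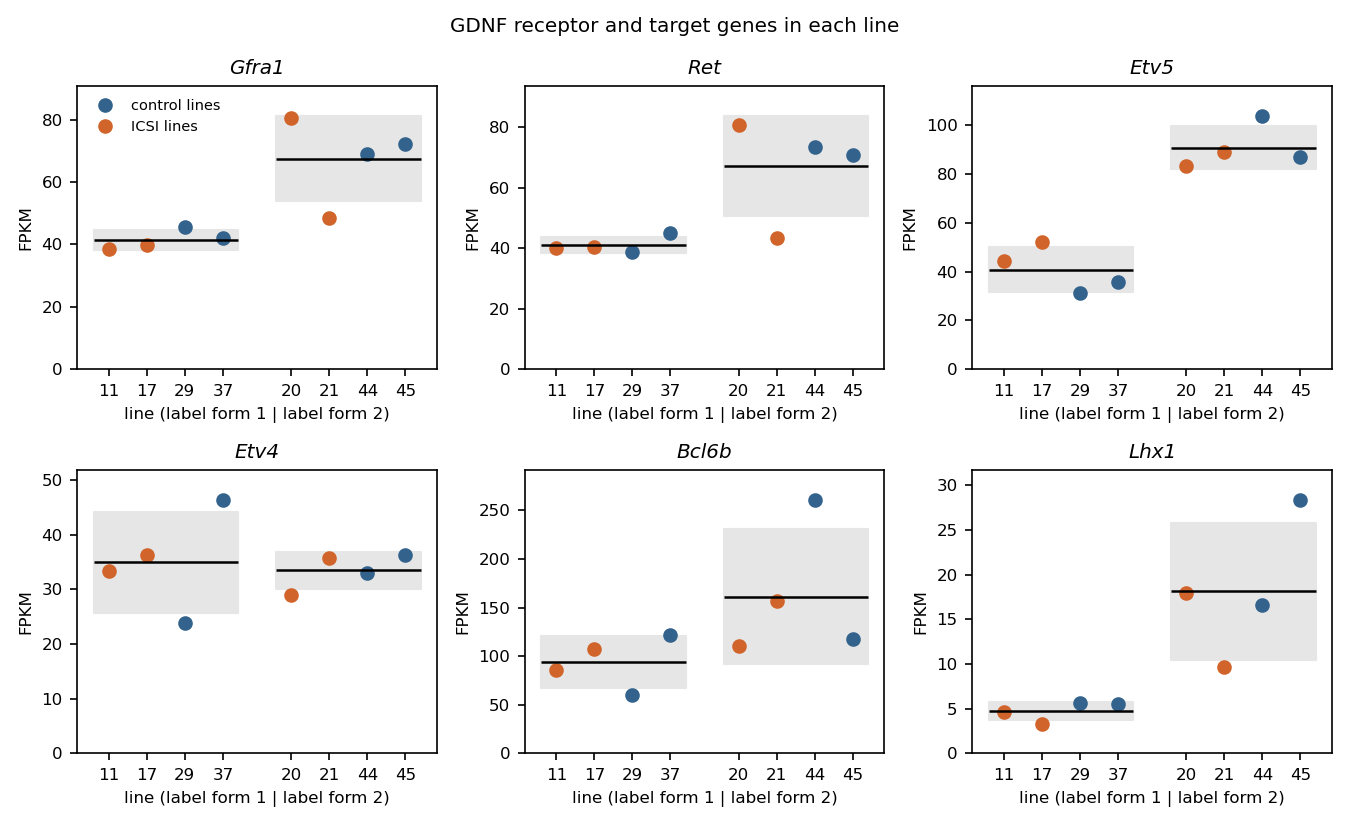
FPKM of each member (y axis, linear from 0) in each of the 8 lines (x axis, form 1 left and form 2 right), with control-F1 and ICSI-F1 lines marked separately and the mean and SD of each form. The *Gfra1*, *Etv5* and *Lhx1* points of form 2 all lie above those of form 1, and *Etv4* spans 23.9 to 46.3 FPKM within form 1.

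The study asked whether ICSI changes gene expression in these cells. No member passed the test between ICSI-F1 and control-F1 lines. *Gfra1* was at 51.8 ± 19.6 FPKM in ICSI-F1 and 57.2 ± 15.5 FPKM in control-F1 (SD, n = 4 each), and *Ret* at 51.2 ± 19.9 and 57.2 ± 17.7 FPKM. *Lhx1* had the largest difference, 8.90 ± 6.64 against 14.0 ± 10.9 FPKM. The ranges of the groups overlapped for all 6 genes. The log2 difference, on the scale of log2(FPKM + 1), was -0.17 ± 0.26 (SE) for *Gfra1*, -0.17 ± 0.28 for *Ret*, 0.19 ± 0.40 for *Etv5*, -0.021 ± 0.18 for *Etv4*, -0.12 ± 0.38 for *Bcl6b* and -0.54 ± 0.58 for *Lhx1*. The limma adjusted p was 1.00 for each. The exact two-sided permutation p ranged from 0.486 to 0.914, where 0.0286 is the smallest that 4 against 4 allows. Neither of these tests took the label form into account. Of the 12000 genes tested by limma, 0 (0%) were called, and 55 had an unadjusted p under 0.05. The limma-voom fit on recovered reads called 0, with 50 at an unadjusted p under 0.05. With the label form as a covariate, limma called 0, with 140 at an unadjusted p under 0.05. Each of these counts is below the share of 0.05 that chance alone would give, and the reason was not tested.

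The size of the difference that these lines can bound depended on the gene. With the group as the only term, the 95% interval of the log2 difference was -0.75 to 0.42 for *Gfra1*, -0.79 to 0.45 for *Ret* and -1.85 to 0.77 for *Lhx1*. With the label form as a covariate it was -0.49 to 0.15 for *Gfra1*, -0.56 to 0.22 for *Ret*, -0.15 to 0.52 for *Etv5* and -0.44 to 0.40 for *Etv4*. For *Lhx1* that interval was -1.04 to -0.045, below 0, with a limma adjusted p of 1.00. Within form 1 the *Lhx1* difference was -0.41, and within form 2 it was -0.67. The within-form differences of *Etv5* (0.51 and -0.14) and *Bcl6b* (0.17 and -0.41) had opposite signs. The interaction of group and form was -0.65 ± 0.21 for *Etv5*, with a limma adjusted p of 1.00. No member passed that test, and 0 (0%) of the 12000 genes did, while 147 had an unadjusted p under 0.05.

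**Figure D2:**
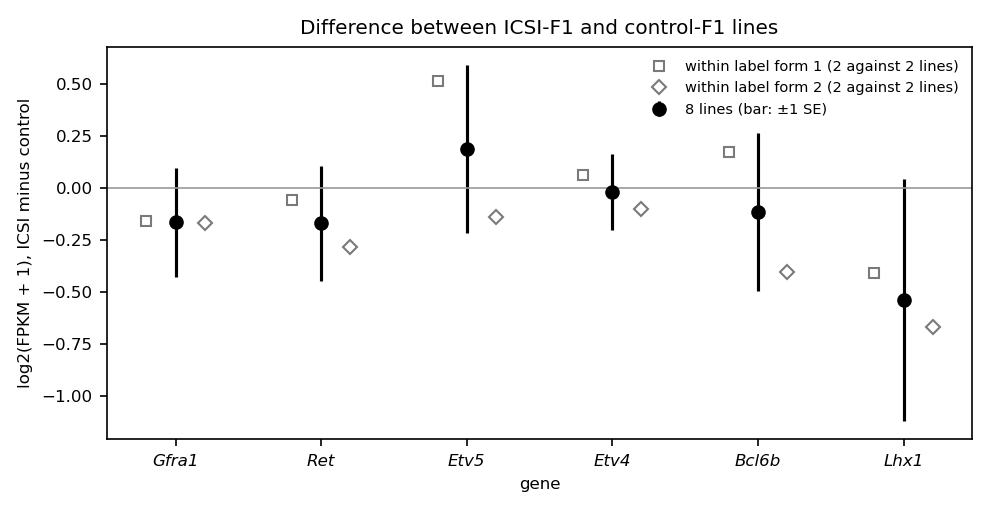
Log2(FPKM + 1) difference, ICSI minus control (y axis), for each member (x axis), over all lines with its SE and within each label form. The points lie between -0.67 and 0.51, and only *Gfra1*, *Ret* and *Lhx1* are below 0 in both forms.

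Between the label forms, by contrast, both receptor genes and part of the target set passed the test. *Gfra1*, *Ret*, *Etv5* and *Lhx1* were higher in form 2, and *Etv4* and *Bcl6b* did not pass the test. Mean levels in form 1 and form 2 were 41.5 ± 3.13 and 67.5 ± 13.6 FPKM for *Gfra1* (SD, n = 4 each), 41.1 ± 2.79 and 67.2 ± 16.5 FPKM for *Ret*, 40.8 ± 9.26 and 90.7 ± 8.90 FPKM for *Etv5*, and 4.75 ± 1.05 and 18.1 ± 7.68 FPKM for *Lhx1*. That is 1.63-fold for each receptor gene, 2.22-fold for *Etv5* and 3.81-fold for *Lhx1*. The limma log2 differences, with the group as covariate, were 0.67 ± 0.14 for *Gfra1* (adjusted p = 0.0216), 0.66 ± 0.17 for *Ret* (0.0371), 1.16 ± 0.15 for *Etv5* (0.00792) and 1.66 ± 0.22 for *Lhx1* (0.00819). *Bcl6b* was at 93.7 ± 26.8 and 161 ± 69.1 FPKM, a log2 difference of 0.74 ± 0.30 with an adjusted p of 0.121. *Etv4* was at 35.0 ± 9.23 and 33.5 ± 3.34 FPKM, a log2 difference of -0.029 ± 0.18 with an adjusted p of 0.923 and a 95% interval of -0.45 to 0.39.

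Of all 12000 genes, 16.0% were called between the forms with 10.2% called higher and 5.76% lower in form 2, against 4 of the 6 members. Only 0.10% of the tested genes had a larger rise in form 2 than *Lhx1*, and 0.50% a larger one than *Etv5*. Falls in form 2 were not counted in these shares. *Gfra1*, *Etv5* and *Lhx1* had form 2 values that were all above the form 1 values, as did 16.0% of all tested genes. The exact two-sided permutation p was 0.0286, the smallest possible, for these 3 genes, 0.0571 for *Ret*, 0.114 for *Bcl6b* and 0.886 for *Etv4*. Label form took 88.1% of the sum of squares of *Etv5*, 81.0% of that of *Lhx1*, 73.5% of that of *Gfra1* and 63.6% of that of *Ret*, but 0.33% of that of *Etv4*. Group took between 0.18% and 8.54% for the 6 genes.

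The calls for the receptor genes were lost without single lines, and those for *Etv5* and *Lhx1* were not. Leaving out 1 line at a time, *Etv5* (log2 difference 1.04 to 1.27) and *Lhx1* (1.49 to 1.85) passed each time. *Gfra1* kept a difference of 0.53 to 0.81, but its adjusted p rose to 0.0709 without control line 37, 0.0729 without ICSI line 11, 0.0621 without ICSI line 17 and 0.0547 without control line 44. *Ret* kept 0.51 to 0.86 and passed only when ICSI line 21 was left out, with adjusted p of 0.0634 to 0.0948 without any of the other 7 lines.

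Some cell type markers also differed between the label forms. The summed FPKM of 6 germ cell markers, of which *Dazl* was highest, was 794 to 905 in form 1 and 971 to 1114 in form 2, and *Ddx4*, *Dazl* and *Sall4* were called higher and *Dppa3* lower, while after quantile normalization 0 of the 6 were called higher and 2 lower. The share of all tested genes called higher was 10.2% with all lines. It was 1.92% without control line 37, 4.06% without control line 44, 1.43% without ICSI line 11 and 2.63% without ICSI line 17. The 3 higher calls among the germ cell markers fell to 0 without any of these lines, and to 1 without control line 29 or 45 or ICSI line 20. Relative to the mean of these markers in the same line, an alternative chosen after the data were seen, the log2 differences were 0.61 for *Gfra1* (limma adjusted p = 0.0347), 0.61 for *Ret* (0.0470), 1.10 for *Etv5* (0.00949) and 1.61 for *Lhx1* (0.00961). That mean was taken over log2 values, so *Dppa3*, at a mean of 1.51 FPKM, counted as much as *Dazl*. The markers' own log2 differences partly cancelled in it, so the adjustment was small. They were 0.52 for *Dazl*, 0.40 for *Sall4*, 0.37 for *Ddx4*, 0.072 for *Mael*, -0.092 for *Tex101* and -0.94 for *Dppa3*. A mean without *Dppa3* was not used. In bulk RNA, fewer cells of a type and less RNA per cell cannot be told apart. Of the 6 markers of undifferentiated spermatogonia, of which *Lin28a* was highest, only *Id4* was called, with 0 called without control line 37 or ICSI line 11, and their sum was 152 to 208 in form 1 and 167 to 211 in form 2. Of the 4 markers of differentiating spermatogonia, of which *Sohlh1* was highest, *Kit* and *Dnmt3b* were called lower in form 2, and 0 were without control line 29, 37, 44 or 45 or ICSI line 11 or 20, 1 without ICSI line 17 and 4 without ICSI line 21. The sum was 168 to 198 in form 1 and 104 to 170 in form 2. Of all 12000 tested genes, 691 (5.76%) were called lower with all lines, 113 without ICSI line 17 and 1076 without ICSI line 21. Without any 1 of the other lines, 38 to 396 were called lower. The part of these markers in the receptor and target differences was not tested.

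Fibroblast markers were present in every line. The study's gene expression methods describe plating GS cells on gelatin to remove embryonic fibroblasts before collection. None of the 14 tested of 16 listed was called between the forms, although 1 was without ICSI line 21, and their sum, led by *Fn1*, was 277 to 920 in form 1 and 214 to 782 in form 2. The highest sums were 920 in control line 29 and 782 in control line 44. The lowest were 214 in control line 45 and 277 in control line 37, and the ICSI lines were at 278 to 507. None of the 16 was at 0 in any line. Their part in the results was not tested. Without control lines 29 and 44 together, *Etv5* (0.97, limma adjusted p = 0.0392) and *Lhx1* (1.75, 0.0402) still passed, and *Gfra1* (0.70, 0.0740) and *Ret* (0.58, 0.137) did not. Sertoli markers summed to 5.03 to 8.98 FPKM, led by *Sox9*, with *Sox9* called higher and *Wt1* lower in form 2, although 0 were called without control line 37 or ICSI line 11 and 0 were called higher without control line 29 or ICSI line 17 or 20. *Amh*, which defines immature Sertoli cells, was at or below 0.052 FPKM. Leydig markers, led by *Hsd3b1*, summed to at most 0.37 FPKM, and *Cyp17a1* was listed at 0 in all lines.

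The rest of the pathway was read from 56 listed genes, all in the table and 50 tested. Between ICSI-F1 and control-F1 lines none was called, with a median log2 difference of -0.024 against -0.013 over all tested genes. *Dok5*, an adaptor gene, was at 0.16 and *Nrtn* at 0.12, and the largest negative differences were *T* at -0.38, *Spry4* at -0.32 and *Nanos2* at -0.27. Between the forms 14 were called higher and 2 lower in form 2, and 34 were not called, where 10.2% of all tested genes were called higher and 5.76% lower. The median was 0.24, against 0.028 over all tested genes.

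Ligand mRNA was scarce in these cells. *Gdnf* itself was at 0.092 to 0.97 FPKM, below the limit for testing, and *Artn* and *Pspn*, encoding ligands of the same family, were at 0.072 to 0.17 and at 0 to 0.048 FPKM. *Nrtn*, encoding neurturin, was at 1.76 to 2.55 FPKM. Among the other co-receptors, *Gfra4* was at 5.04 to 6.39 FPKM and *Gfra2* at 0.26 to 1.61 FPKM, while *Gfral* was listed at 0 throughout. *Gfra3*, the artemin co-receptor, fell from 3.30 to 5.92 FPKM in form 1 to 1.42 to 2.66 FPKM in form 2 (log2 difference -1.05 ± 0.18, limma adjusted p = 0.0144). The *Gfra3* call was lost without control line 37, without ICSI line 11, and without control lines 29 and 44 together.

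Part of the feedback inhibitors and of the other GDNF-responsive genes were higher in form 2 as well. Of the 7 feedback inhibitors tested, 4 were called higher in form 2 and 0 lower, against 10.2% and 5.76% of all tested genes, with a median log2 difference of 0.71. *Dusp6*, an ERK phosphatase, was at 45.9 to 68.1 FPKM in form 1 and 136 to 198 FPKM in form 2 (1.36 ± 0.16, limma adjusted p = 0.00792). *Spry4*, a Sprouty inhibitor, went from 10.4 to 19.1 FPKM up to 26.3 to 35.4 FPKM (1.16 ± 0.14, 0.00792). *Dusp4* (1.34 ± 0.29, 0.023) and *Spred1* (0.71 ± 0.12, 0.0126) also rose. The 3 that were not called, *Spry1*, *Spry2* and *Spred2*, had positive differences.

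Of 10 other responsive genes, 6 were called higher and 0 lower, again against 10.2% and 5.76% of all tested genes, with a median of 0.67. *Id4*, a marker of spermatogonial stem cells, was at 5.38 to 10.2 FPKM in form 1 and 13.0 to 25.0 FPKM in form 2 (1.11 ± 0.23, limma adjusted p = 0.0210). The zinc finger gene *Egr2* (0.97 ± 0.17, 0.0144), the chemokine receptor gene *Cxcr4* (0.74 ± 0.11, 0.00913), the POU factor gene *Pou3f1* (0.61 ± 0.11, 0.0146), the cyclin gene *Ccnd2* (0.74 ± 0.17, 0.0272) and *Egr3* (0.80 ± 0.21, 0.0365) were the others. *Egr3* values overlapped between the forms, at 10.9 to 20.03 and 19.1 to 33.8 FPKM. The 6 fell to 1 without control line 37, where the share of all tested genes called higher fell to 1.92%, to 3 without ICSI line 11 (1.43%) or ICSI line 17 (2.63%), and to 1 without control lines 29 and 44 together (2.27%). The median stayed between 0.58 and 0.82 when 1 line was left out. Likewise the count for feedback inhibitors ran from 3 to 6 when 1 line was left out and was 3 without those 2 lines.

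Adaptors and kinases were the largest role. The median log2 difference of the 29 tested was -0.057, and 14 of them were above 0. *Dok4*, an adaptor gene, was called lower in form 2, and 0 of the 29 were called lower when any line other than ICSI line 21 was left out.

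**Figure D3:**
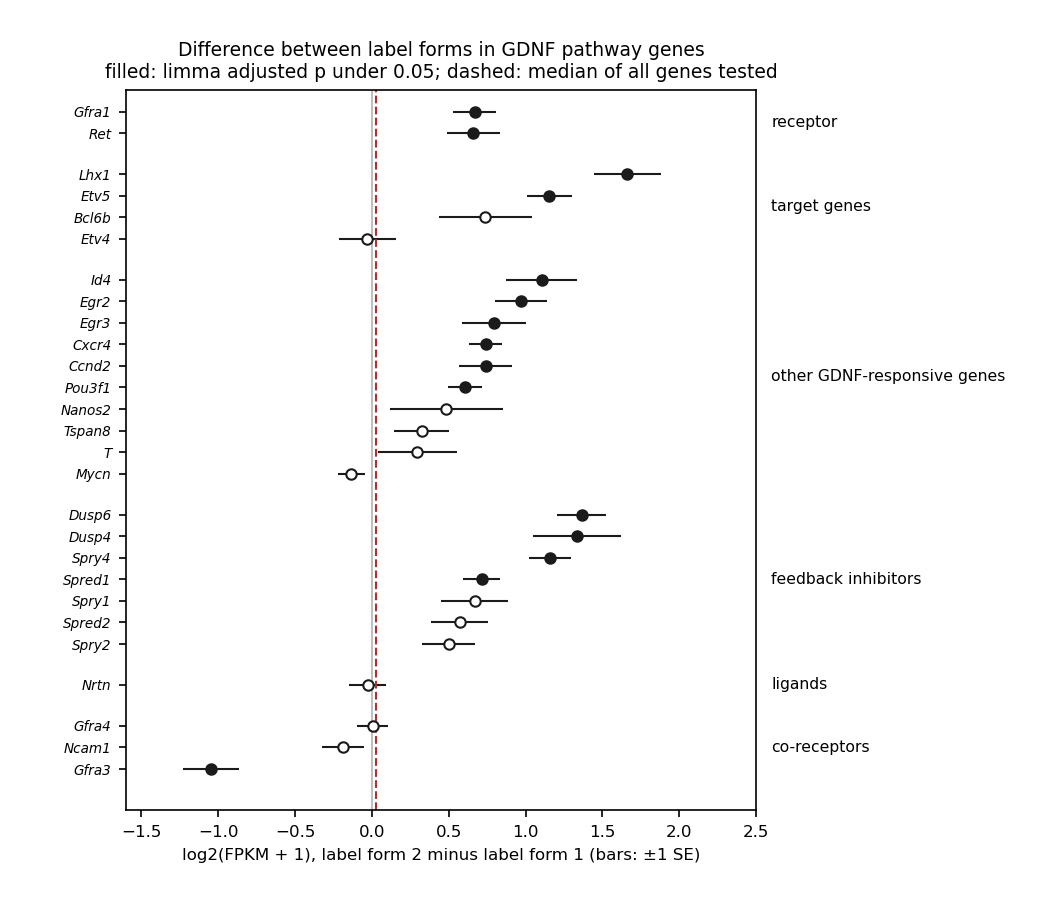
Log2(FPKM + 1) difference between label forms, form 2 minus form 1 (x axis), with its SE for the members and the tested responsive genes, feedback inhibitors, ligands and co-receptors (y axis, grouped by role), filled where the limma adjusted p was under 0.05. The dashed line is the median of all tested genes at 0.028, and all 7 feedback inhibitors lie right of 0.

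**Figure D4:**
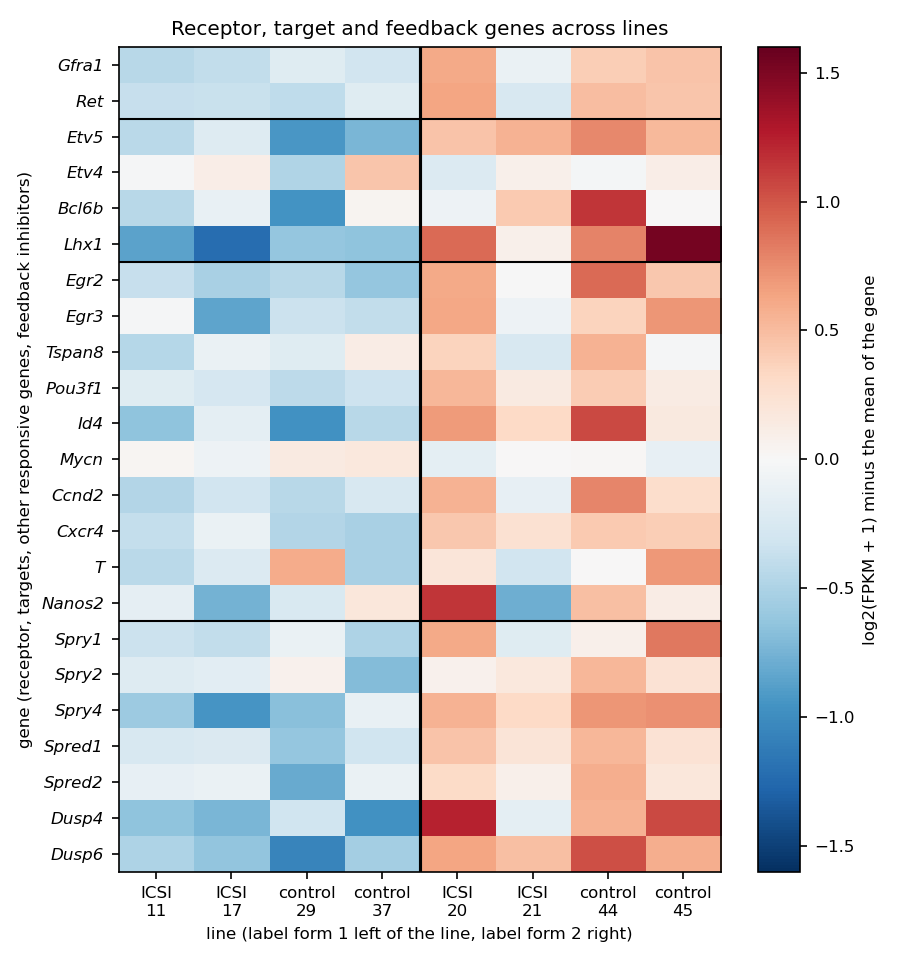
Log2(FPKM + 1) minus the mean of the gene (colour) for the members, the other GDNF-responsive genes and the feedback inhibitors (y axis) in the 8 lines (x axis, form 1 left of the vertical line). The form 2 columns are above the gene mean for *Etv5* and *Lhx1*, and *Etv4* shows no such step.

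Whether lines with more receptor mRNA held more target mRNA was asked after the mean of each form was removed, since the forms would otherwise set the relation. Over 8 lines and 8 receptor and target pairs, no relation passed. The strongest was *Gfra1* with *Lhx1*, with a Pearson r of 0.761 (exact permutation p = 0.115, adjusted 0.587) and a Spearman rho of 0.690 (exact permutation p = 0.0990, adjusted 0.588). Without ICSI line 20 and control line 45, the lines farthest from the *Gfra1* median, r was 0.850 (exact permutation p = 0.167), but without ICSI line 21 alone it was 0.274. *Ret* with *Lhx1* gave an r of 0.686 and a rho of 0.238 (exact permutation p of 0.293 and 0.658, adjusted 0.587 and 0.877). Its r was 0.890 without ICSI line 20 and control line 44 (exact permutation p = 0.396), but -0.187 without ICSI line 21 alone. For the other 6 pairs, r lay between -0.349 and 0.026. The rho of *Gfra1* was -0.548 with *Etv5*, -0.429 with *Etv4* and -0.524 with *Bcl6b* (exact permutation p of 0.155, 0.302 and 0.220). That of *Ret* with the same genes lay between 0 and 0.238.

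**Figure D5:**
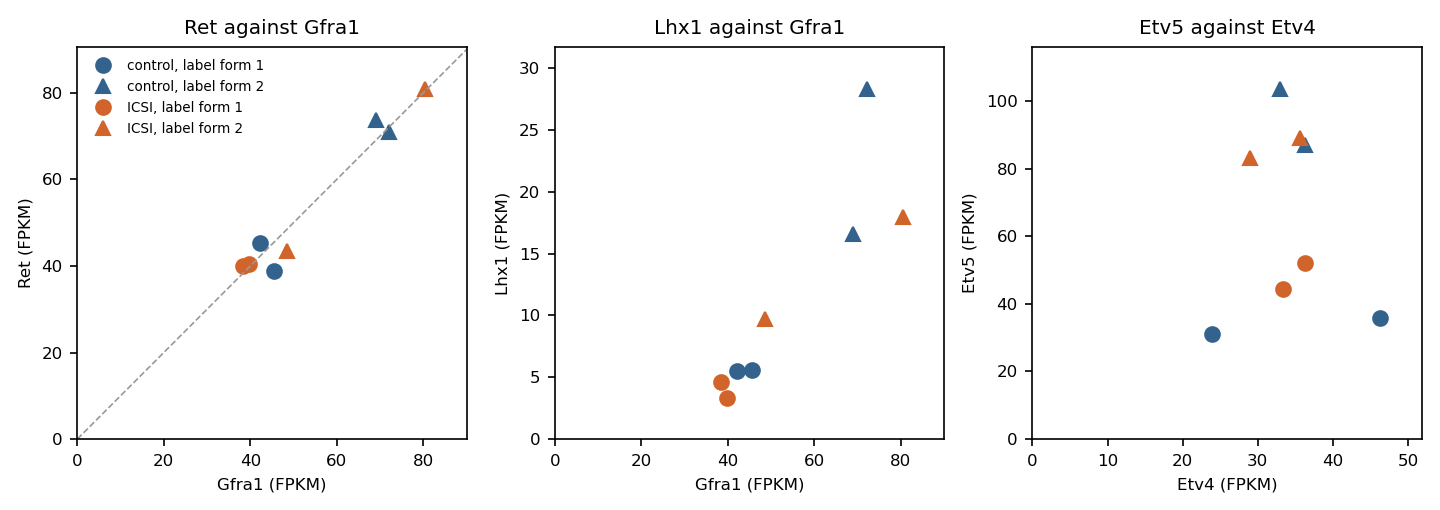
FPKM of member genes plotted against each other (linear axes from 0), each point 1 of the 8 lines, with group and label form marked. *Ret* follows *Gfra1* with a ratio of 0.854 to 1.07.

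Genes whose pattern over the 8 lines was most like each member's were found by the root mean square distance of log2(FPKM + 1), after each gene's mean was removed, among 11999 other tested genes. *Ret* was 13th nearest to *Gfra1*, at a distance of 0.109, and *Gfra1* was 4th nearest to *Ret*, where the distances of *Gfra1* and *Ret* from a flat profile were 0.390 and 0.414. The nearest genes were *Ostm1* (0.0826) and *Utp23* (0.0832) for *Gfra1*, and *Pphln1* (0.0935) and *Amot* (0.103) for *Ret*. *Cd82* (0.125) and *Cggbp1* (0.157) were nearest to *Etv5*, and *Hs3st3b1* (0.208) and *Dmrt2* (0.231) to *Lhx1*. *Elovl6* (0.246) and *Midn* (0.250) were nearest to *Bcl6b*, and *Pard6b* (0.0902) and *Lrrc8b* (0.0987) to *Etv4*. *Lhx1* ranked *Gfra1*, *Ret* and *Etv5* 114th, 129th and 137th, and *Etv4* ranked *Etv5* only 11462nd. These lines share their label forms, so the distances are descriptions.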

How the data were processed

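RNA-seq was performed on 8 GS cell lines, and groups were taken from the sample titles. The authors trimmed reads with cutadapt, mapped single reads to mm10 with STAR, used htseq-count to count them per gene, and deposited FPKM values. Columns of the authors' own DESeq2 comparison, deposited as a log2 fold change and an adjusted p-value, were not used. The submitters' processing notes list cutadapt 3.4 and DESeq2 1.30.1 for label form 1 and cutadapt 1.16 and DESeq2 1.22.2 for label form 2. The study's supplementary methods name only cutadapt 3.4 and DESeq2 1.30.1. Library kits named in the labels and in the methods differ, so strandedness is uncertain.

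Values were tested as log2(FPKM + 1), a scale that understates changes of low genes, with limma 3.58.1 in R 4.3.3 (lmFit and eBayes with a trend, two-sided). The 12000 genes averaging 1 FPKM or more were tested, with Benjamini-Hochberg adjustment over them and a threshold of 0.05. The ICSI fit had no covariate, and the label form fit had the group as covariate. Single genes were tested with an exact permutation test over 70 assignments, and receptor and target relations over 576 orders of lines within forms. The script was tested on simulated data. Whole reads, within 0.02 reads, were recovered from the FPKM steps for 11995 of the 12000 genes and used for limma-voom. Counting error of a member was at most 5.11%, at the fewest reads. Reads carry no molecular identifiers, so this covers counting error only.

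Positions came from GENCODE M21 on GRCm38, an earlier release than the authors used. Members and gene lists were chosen with earlier results of these data known. The lists were GDNF pathway genes and markers of germ cells, undifferentiated and differentiating spermatogonia, fibroblasts, Sertoli cells and Leydig cells. Genes named were the members, the 12 pathway genes with the smallest p between label forms, the 3 largest rises and falls with ICSI, ligands and co-receptors, the 2 nearest genes per member and the highest gene of each marker list. Some genes that this rule names are not reported here. Other genes named as called or not called were added to complete the counts. Alternatives were another pseudocount of 0.1, no filter on low values, TPM, quantile normalization, limma-voom, other covariates and leaving out lines.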

Additional observations from a re-analysis of the deposited data

Results flagged for a closer look

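In 54 groups of 4 lines, single values were compared with the other 3 by Dixon's criterion, and 4 values met it. Chance meets it in about 1 of 20 groups. That rate does not allow for the label forms, and each group mixed 2 lines of each form. *Ret* was at 80.9 FPKM in ICSI line 20, against 40.0, 40.5 and 43.4 FPKM in the other ICSI lines. *Dusp4* was at 34.1 FPKM in the same line, against 8.001, 8.53 and 12.4 FPKM. Line 20 is in form 2. In the form 2 control lines 44 and 45, *Ret* was at 73.7 and 71.0 FPKM and *Dusp4* at 20.9 and 30.0 FPKM. *Nrtn* was at 2.44 FPKM in control line 29, against 1.76, 1.79 and 1.86 FPKM. *Pspn* was at 0.0478 FPKM in control line 45 and listed at 0 in the other controls. Where the other 3 values are 0, any value above 0 meets the criterion, so the *Pspn* value met it automatically.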

How the results depend on the processing

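No paired analysis was possible because the line numbers of the groups differ and pair no samples. Between ICSI-F1 and control-F1 lines 0 genes were called under every alternative except without a filter on low values, where 1 was. Genes called between label forms numbered 1917, but 1255 without the filter, 210 to 2691 when 1 line was left out (287 without control line 37, 210 without ICSI line 11, 429 without ICSI line 17, 675 without control line 44, 1044 without control line 29, 1061 without control line 45, 1209 without ICSI line 20) and 401 without control lines 29 and 44 together, a choice made after seeing the data. The share called higher was 64.0%, but 50.8% after quantile normalization and 50.4% relative to germ cell markers. Of the members, 4 were called, 3 without the filter, where *Ret* had a limma adjusted p of 0.0784, 2 to 4 when 1 line was left out (2 without control line 37 or 44 or ICSI line 11 or 17), and 2 without lines 29 and 44.

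*Gfra1*, *Ret* and *Lhx1* kept a negative ICSI difference in all alternatives run. With 1 line left out, that difference ran from -0.40 to -0.044 for *Gfra1*, -0.41 to -0.033 for *Ret*, -0.93 to -0.12 for *Lhx1*, -0.094 to 0.47 for *Etv5*, -0.18 to 0.12 for *Etv4* and -0.46 to 0.24 for *Bcl6b*, and the label form difference of *Etv4* from -0.23 to 0.14. Likewise r ran from 0.274 to 0.870 for *Gfra1* with *Lhx1*, -0.17 to 0.12 for *Ret* with *Etv5*, -0.25 to 0.44 with *Etv4*, -0.26 to 0.30 with *Bcl6b* and -0.19 to 0.80 with *Lhx1*. For *Gfra1*, r ran from -0.82 to -0.18 with *Etv5*, -0.55 to -0.22 with *Etv4* and -0.64 to -0.10 with *Bcl6b*. For *Ret* with *Bcl6b*, r was -0.11 as TPM and -0.13 after quantile normalization. The causes were not tested. The interaction was not run without single lines. With 4 lines a group, differences the size of the SEs could not be resolved.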
